A study of Homo sapiens with 2 samples.

Results

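The genes described are 9 androgen-driven genes of the prostate: TMPRSS2, KLK3, FKBP5, NDRG1, SLC45A3, STEAP4, ACSL3, PMEPA1 and ABCC4. They were taken as a fixed list of names and sought in a list of chromatin immunoprecipitation (ChIP-seq) peaks for mERG, the transcription factor ERG carrying a mono-methylated lysine at position K362. A gene counted as having a peak when at least 1 row of the peak list named it. Of the 9 genes, 5 were named, by 13 of the 18070 peaks in the list, which named 5011 genes in all. The peaks came from VCaP, a line of prostate cancer cells with a fusion of TMPRSS2 to ERG, grown in its regular medium with no arm that added or removed androgen. There was 1 mERG ChIP library, made with a custom antibody against the mono-methylated ERG peptide, and 1 control library, whose title names input and whose antibody label names IgG. Both were read as 75 bp single ends from chromatin of about 200 bp. With 1 library of each kind there was no replicate, and no difference between genes or peaks could be set against a replicate error.

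The androgen receptor is a hormone-bound transcription factor that sits on enhancers and promoters of genes for secretion, lipid handling and protein folding in prostate epithelium. It recognises paired copies of a short half-site, while ERG, a member of the ETS family, binds DNA around the letters GGAA, and forkhead factors open chromatin near many androgen receptor sites. In tumors with the fusion, the androgen-driven start of TMPRSS2 is joined to ERG, so that the hormone drives ERG itself.

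TMPRSS2, SLC45A3, NDRG1, ACSL3 and ABCC4 were named by at least 1 peak (5 of 9, 55.6%, Wilson 95% interval 26.7 to 81.1%, for counting error only). Over protein-coding genes, 4088 of 20052 were named, or 20.4%. When the annotated gene was used in place of the name, a peak centre fell inside ACSL3, FKBP5 and ABCC4 (3 of 9), against 19.6% of 20136 protein-coding genes. FKBP5 was the gene that the names missed, since its 6 internal peaks were all named for a microRNA gene. STEAP4, PMEPA1 and KLK3 had no peak by either count. The genes therefore fell into 3 kinds: peaks inside the gene, peaks upstream of it, and no peak detected. Long genes held peaks more often: 0.894% of protein-coding genes between 3.44 and 7.27 kb, the length class of KLK3, had an internal peak, against 43.6% of those between 90.4 and 160.5 kb, the class of FKBP5. The class of TMPRSS2, NDRG1, ACSL3 and PMEPA1, 57.7 to 90.4 kb, had an internal peak in 36.6%. The mean of these class shares over the 9 genes was 29.6%, close to the 3 of 9 observed. The map of peaks along the 9 genes shows these kinds side by side.

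**Figure D1:**
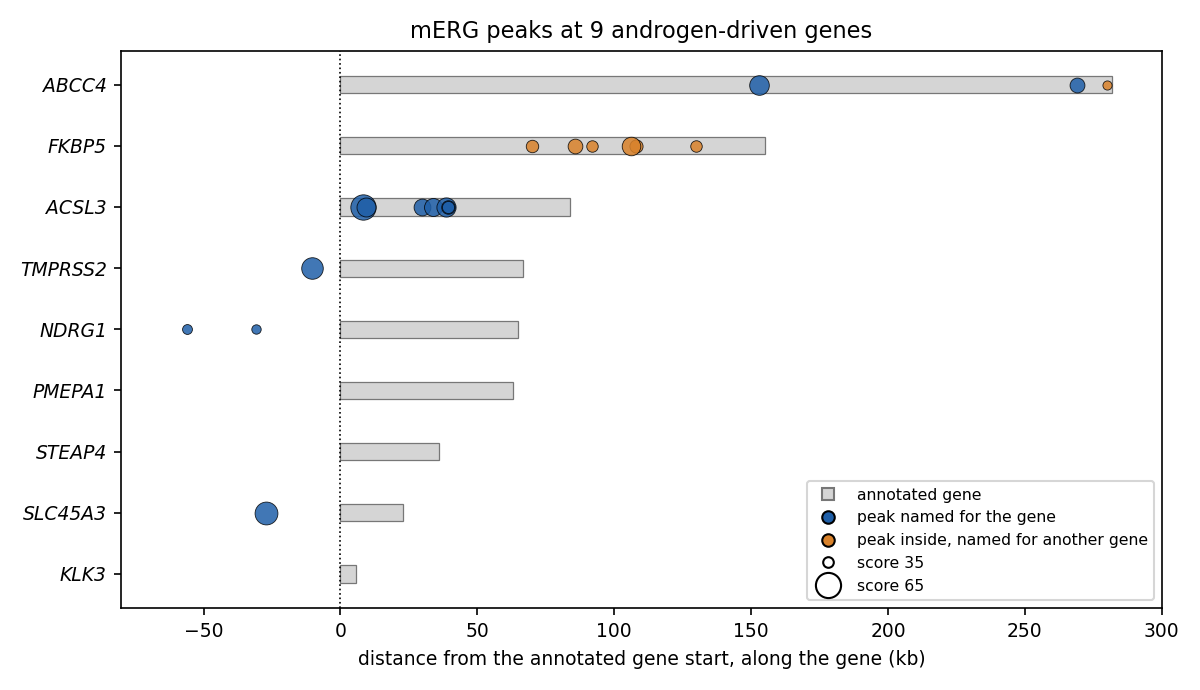
Positions of mERG peaks at the 9 genes, with distance along the gene from its annotated start in kb on the x axis and 1 gene a line, ordered by length; grey bars are the annotated genes, blue points peaks named for the gene, orange points peaks inside the gene named for another, and point area grows with the score. TMPRSS2, SLC45A3 and NDRG1 have points upstream of the bar, ACSL3, FKBP5 and ABCC4 have points inside it, and PMEPA1, STEAP4 and KLK3 have none.

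The sequences at the centre of the strongest peak of 5 genes are printed first, since these are the peaks on which the account of each of these genes turns. The stronger NDRG1 peak is not printed. Its window had a GC content of 53.7% and held the longer ETS core described below. The score belongs to the whole peak, which is wider than the window. Each line gives 201 bases of the plus strand of GRCh37 (hg19), 5′ to 3′, centred on the peak, because the list holds no summit. Capitals mark GGAA on either strand (read as TTCC on the other strand), the androgen receptor half-site AGAACA (or TGTTCT), and the forkhead motif TGTTTAC (or GTAAACA).
TMPRSS2, chr21:42913450-42913650: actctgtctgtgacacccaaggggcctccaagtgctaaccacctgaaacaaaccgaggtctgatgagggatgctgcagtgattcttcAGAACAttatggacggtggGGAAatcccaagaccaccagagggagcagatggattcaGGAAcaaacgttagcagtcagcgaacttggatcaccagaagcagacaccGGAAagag
SLC45A3, chr1:205676831-205677031: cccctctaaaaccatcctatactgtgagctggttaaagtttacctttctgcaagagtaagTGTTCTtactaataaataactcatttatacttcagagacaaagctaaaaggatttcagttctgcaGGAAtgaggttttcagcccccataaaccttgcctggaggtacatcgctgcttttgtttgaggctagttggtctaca
ACSL3, chr2:223733863-223734063: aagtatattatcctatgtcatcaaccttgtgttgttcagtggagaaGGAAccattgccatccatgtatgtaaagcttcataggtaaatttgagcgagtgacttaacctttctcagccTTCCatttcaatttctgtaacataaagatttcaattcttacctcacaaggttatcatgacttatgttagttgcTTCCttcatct
ABCC4, chr13:95800342-95800542: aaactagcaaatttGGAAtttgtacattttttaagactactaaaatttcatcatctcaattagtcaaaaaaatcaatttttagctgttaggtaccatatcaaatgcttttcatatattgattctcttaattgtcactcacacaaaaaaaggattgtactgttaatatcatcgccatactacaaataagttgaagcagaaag
FKBP5, chr6:35590277-35590477: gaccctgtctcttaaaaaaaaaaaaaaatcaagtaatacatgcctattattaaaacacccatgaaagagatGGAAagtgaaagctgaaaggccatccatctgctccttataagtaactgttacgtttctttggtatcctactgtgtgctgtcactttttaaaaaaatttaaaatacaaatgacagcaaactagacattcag
The window upstream of TMPRSS2 held 3 copies of GGAA and 1 half-site, and that upstream of SLC45A3 held 1 of each. The ACSL3 window held 3 copies of GGAA, the ABCC4 and FKBP5 windows 1 each, and none of these 3 held a half-site. The forkhead motif was in none of the 5 windows. GC content ran from 27.4% in the ABCC4 window to 51.7% in the TMPRSS2 window. A match is a description of letters, not a site or a cause.

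TMPRSS2 encodes a serine protease of the luminal cell surface and supplies the androgen-driven start of the fusion. The gene (chr21:42836227-42903043, minus strand, 66.8 kb) held 0 peaks, and 1 peak was named for it, at chr21:42913310-42913790. That peak was intergenic, 481 bp wide, overlapped an L1MEe LINE repeat and had a score of 55.29. The score is the value the authors deposited for each peak; its scale is not named in the header, and it is used here only to rank peaks within this list, in which 82.6% of peaks scored lower. The list put the peak −33.5 kb from the transcription start site (TSS), negative values being upstream. The outermost annotated start of TMPRSS2 lies further upstream than the TSS the list used, and from there the peak was at −10.5 kb. The nearer end of the next gene on that side, RIPK4, was 246 kb away. On the other side no peak lay within TMPRSS2 or up to a peak inside FAM3B, and the stretch without a peak was 189.8 kb long, from peak centre to peak centre.

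ERG, the other partner of the fusion and the source of the protein assayed, was named by 2 weak peaks. An intronic peak at chr21:39943714-39944074 scored 35.89 and lay 13.0 kb downstream of the TSS the list used for it. The annotated start of ERG lies 76.8 kb further upstream, and from there this peak was 89.8 kb into the gene. An intergenic peak at chr21:40047857-40048222 scored 33.02, close to the lowest score of the list (33.01). It lay at −14.3 kb, a distance that the list took from the annotated start. The 2.8 Mb between the ends of ERG and TMPRSS2 held 29 peaks, or 10.3 per Mb. Chromosome 21 held 10.5 per Mb over its length up to the last gene. That length was not corrected for unsequenced stretches, so the closeness of these values cannot be read as equal density. Of these 29 peaks, 19 were centred inside BRWD1, a bromodomain gene, and were named BRWD1 or PSMG1, with scores up to 86.69. Positions are those of the reference genome, in which both genes are intact.

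SLC45A3, known as prostein, is a prostate-restricted membrane transporter and another fusion partner of ETS genes. It carried no peak inside its 22.7 kb (chr1:205626979-205649637, minus strand). A single intergenic peak at chr1:205676710-205677152 was named for it, 443 bp wide, with a score of 58.59, higher than 85.9% of peaks. It lay −27.3 kb from the TSS of the list, which nearly coincides with the annotated start. The 3′ end of NUCKS1 was closer, at 5.02 kb, but the list names the gene of the nearest TSS. On the side of SLC45A3, no other peak was found over the 519.5 kb from this peak to one in DSTYK. On the other side the next peak was 17.6 kb away, in an intron of NUCKS1 at chr1:205694381-205694712, and scored 34.61.

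NDRG1, a stress and differentiation gene that androgen induces, was named by 2 intergenic peaks and held none inside its 64.8 kb (chr8:134249418-134314265, minus strand). The closer one, chr8:134344690-134345292, lay at −35.4 kb and scored 33.61. The farther one, chr8:134369989-134370509, lay at −60.7 kb and scored 34.13. Only 6.16% and 10.3% of all peaks scored lower than these, so that NDRG1 was named by peaks near the floor of the list. Both stood between NDRG1 and ST3GAL1. They differed in base composition, with GC contents of 30.3% and 53.7%.

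ACSL3, a long-chain acyl-CoA synthetase that activates fatty acids for lipid droplets, held the most peaks of the 9 genes as the list counts them. All 7 were intronic and lay inside the gene (chr2:223725660-223809357, plus strand, 83.7 kb), which gives 8.36 peaks per 100 kb, beside a median of 3.37 over protein-coding genes that hold a peak. Of the protein-coding genes of its length class (57.7 to 90.4 kb), 92.7% held fewer peaks. The strongest, chr2:223733495-223734432, was in intron 1 of 16, 8.23 kb past the TSS, was 938 bp wide and scored 65.55, the highest score at any of the 9 genes. A second peak in the same intron, at chr2:223734789-223735280, began 356 bp further on and scored 49.27.

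The remaining 5 ACSL3 peaks lay in intron 2 of 15 of another transcript, between 29.6 and 39.3 kb past the TSS. Their scores were 44.78 at chr2:223755123-223755524, 47.02 at chr2:223759338-223759814 and 49.72 at chr2:223763899-223764613. The last of these overlapped an LTR repeat of the MER41C type. It was followed after 17 bp by a peak scoring 39.08 and after another 19 bp by one scoring 37.06, so that these 3 entries form a nearly unbroken run. Counting peaks within 1 kb of each other as 1 left 4, fewer than the 6 inside FKBP5, which stayed separate. No peak fell in the part of the gene past 47.0% of its length. One of the annotated ACSL3 transcripts, with no coding sequence defined, starts 0.788 kb from the centre of the peak that scored 44.78.

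FKBP5, a co-chaperone of steroid receptors and a widely used readout of their activity, was named by 0 peaks although 6 lay inside it (chr6:35541362-35696360, minus strand, 155 kb). All 6 were named MIR5690, a microRNA gene whose start, as the list used it, lies 63.8 kb into FKBP5. Naming by the nearest TSS had this effect elsewhere too: of 16768 peaks inside protein-coding genes, 29.2% were named for another gene. Along FKBP5 the peaks spanned 60.1 kb, from 45.1% to 83.8% of the gene's length, and numbered 3.87 per 100 kb. In its length class, 85.9% of genes held fewer.

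The strongest FKBP5 peak, chr6:35590213-35590541, was in intron 4 of 11 and scored 48.4, higher than 71.9% of peaks. The same intron held peaks scoring 38.45 and 36.09, intron 6 held 1 scoring 36.13, and intron 2 held 2 scoring 40.98 and 37.44. Of the 6 scores, 2 were above the median of all peaks (40.9). The closest to the annotated start, chr6:35626292-35626469, lay 70.0 kb into the gene and 30.3 kb from a second annotated start. No peak lay in the 10 kb upstream of the gene.

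ABCC4, an efflux pump for cyclic nucleotides and prostaglandins, is the longest of the genes (chr13:95672089-95953729, minus strand, 282 kb). It was named by 2 intronic peaks. The stronger, chr13:95800229-95800656, was in intron 19 of 20 of a shorter transcript, overlapped a MIR repeat, lay 153 kb past the TSS and scored 50.67. The weaker, chr13:95684724-95684986, was in intron 30 of 30, 269 kb past the TSS, and scored 41.24. A further peak of score 33.34 in the 3′ UTR, at chr13:95673528-95673728, was named for the uncharacterized gene LOC101927284. Taken per length, ABCC4 had 1.07 peaks per 100 kb, below the median of 3.37 among genes with a peak, although 76.7% of all protein-coding genes in its length class held fewer peaks. An annotated ABCC4 transcript with no coding sequence defined starts 0.772 kb from the centre of the stronger peak. The first 54.4% of the gene, counted from its start to the centre of the stronger peak, held no other peak.

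KLK3 encodes prostate-specific antigen, the secreted protease measured in blood, and is a standard androgen receptor target. No peak was detected at it (chr19:51358171-51364020, plus strand, 5.85 kb). The nearest peak to its start lay 1207 kb downstream and scored 38.9; the list called it intergenic and GENCODE places it inside ZNF432. The stretch without a peak around KLK3 was 2483 kb long, and it contained the whole kallikrein cluster of 15 genes, which held 0 peaks over 0.265 Mb. KLK2 and KLK4, the other androgen-driven kallikreins, were thus without a peak as well. Chromosome 19 held 192 peaks, and 6.08% of its protein-coding genes had an internal peak.

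PMEPA1, a membrane adaptor that restrains TGF-beta and androgen receptor signaling, had no peak (chr20:56223448-56286592, minus strand, 63.1 kb). Its nearest peak lay at −636 kb, inside RAB22A, with a score of 35.11, and the stretch without a peak was 1836 kb. This gap stood on a chromosome rich in peaks, with 835 in all and an internal peak in 28.1% of its protein-coding genes. STEAP4, a metalloreductase of iron and copper, also had no peak (chr7:87900207-87936209, minus strand, 36.0 kb). Here the nearest one was 91.2 kb from the start, past the other end of the gene, in an intron of SRI; it was named LOC102723885 and scored 42.15. On the upstream side the next peak was inside STEAP1, a family member, 1948 kb from the SRI peak.

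The nearest peak to the start of a protein-coding gene was at a median of 143 kb, and 25.1% of these genes had none within 500 kb, as was the case for KLK3 and PMEPA1. A nearest peak over 1000 kb away, as at KLK3, was found for 13.2%. Of the gaps between neighbouring peaks, 98.73% were shorter than the one over KLK3, 98.19% than the one over STEAP4 and 98.06% than the one over PMEPA1. Each gap counted once whatever its length, so these are shares of gaps, not of genes or of the genome. By distance from the start, 89.0% of protein-coding genes had a nearer peak than KLK3, 79.2% than PMEPA1 and only 40.2% than STEAP4. The starts of FKBP5 and NDRG1 had 19 and 15 peaks within 500 kb, against a median of 4 over protein-coding genes, and TMPRSS2 had 9, ACSL3 11, STEAP4 5, and SLC45A3 and ABCC4 3 each. Each count includes the gene's own peaks, among them the 6 inside FKBP5, the 7 inside ACSL3 and the 3 inside ABCC4. NDRG1 thus had many peaks around it and weak peaks of its own, while SLC45A3, with a stronger peak, was near the median in its neighbourhood. Their chromosomes differed in the same direction, with 10.9 peaks per Mb on chromosome 8 (NDRG1) and 4.77 on chromosome 1 (SLC45A3). Chromosome 6, which carries FKBP5 and the 19 peaks within 500 kb of its start, held only 3.65 per Mb. How far the density of the chromosome accounts for these local counts was not tested. The curve of nearest distances places the 9 genes among all others.

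**Figure D2:**
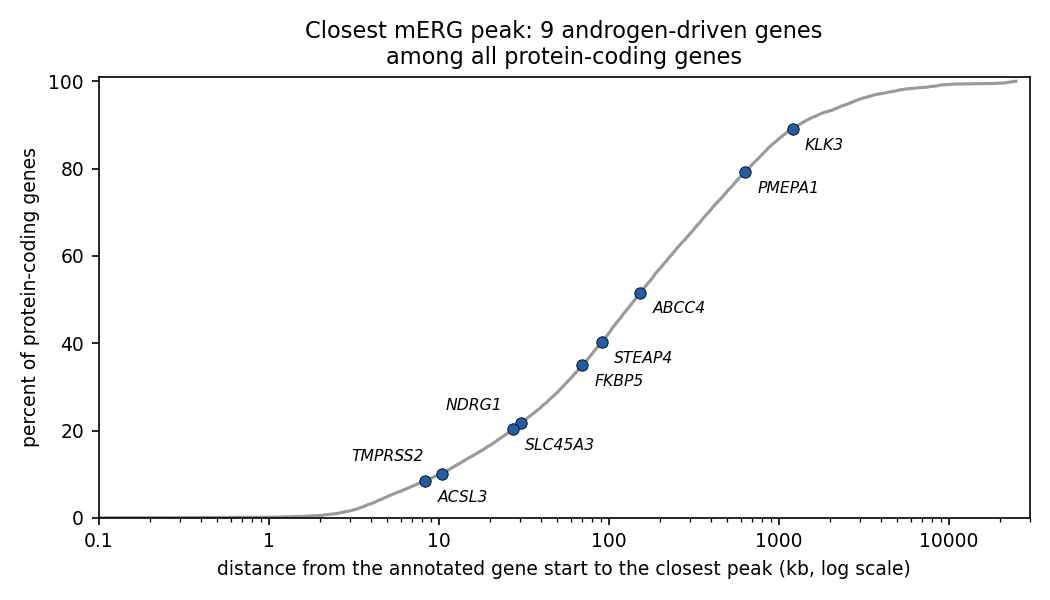
Distance from the annotated gene start to the closest mERG peak in kb (x axis, log scale) against the percent of protein-coding genes with a peak at that distance or closer (y axis); the grey line is all protein-coding genes and the blue points are the 9 genes. ACSL3 (8.30 kb) and TMPRSS2 (10.5 kb) are the closest, and PMEPA1 (636 kb) and KLK3 (1207 kb) the farthest.

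Of the 13 named peaks, 2 lay within 10 kb of the TSS of the list, against 20.1% of all peaks, and both belonged to ACSL3. So 1 of 9 genes had a peak within 10 kb, a share near the 8.92% of protein-coding genes, and 0 of the 13 peaks lay within 1 kb of that TSS, against 0.481% of all peaks. By any annotated transcript start, 2 of 9 genes, ACSL3 and ABCC4, had a peak centre within 1 kb, beside 4.22% of protein-coding genes. These 2 genes have 19 and 14 annotated starts, against a median of 5 per protein-coding gene; NDRG1 with 47 and TMPRSS2 with 13 had no peak within 1 kb of a start. When the annotated gene was extended by 10 kb on each side, 3 of 9 genes had a peak, against 22.9% of protein-coding genes; the TMPRSS2 peak, at −10.5 kb, fell just outside. Of the 13 peaks, 9 were intronic (69.2%, Wilson 95% interval 42.4 to 87.3%) and 4 intergenic (30.8%, 12.7 to 57.6%), where over all peaks 87.6% were intronic and 7.53% intergenic. ACSL3 alone gave 7 of the 9 intronic peaks and ABCC4 gave 2, so the share rests largely on 1 gene. The intervals treat the peaks as separate. The 4 intergenic peaks were also the 4 upstream ones, and upstream peaks made up 24.6% of the list.

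Among the 13 peaks the score had a median of 47.0 and ran from 33.61 to 65.55, and 9 were above the median of the list. Restricting the list to the stronger 50% of peaks left 4 of the 9 genes named, all but NDRG1 of the 5, against 12.8% of protein-coding genes. At a score of at least 50, which 25.0% of all peaks reached, 4 peaks were left, 1 each at TMPRSS2, SLC45A3, ACSL3 and ABCC4. Set among the strongest peaks of all named genes, that of ACSL3 was at the 84.2 percentile, SLC45A3 at 77.4, TMPRSS2 at 72.9, ABCC4 at 64.8 and NDRG1 at 8.04. None of the 9 genes came near the highest score of the list, 592.2. Together with the 7 internal peaks that bore another gene's name there were 20 peaks, of which 11 were above the median. The score curve marks each of them.

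**Figure D3:**
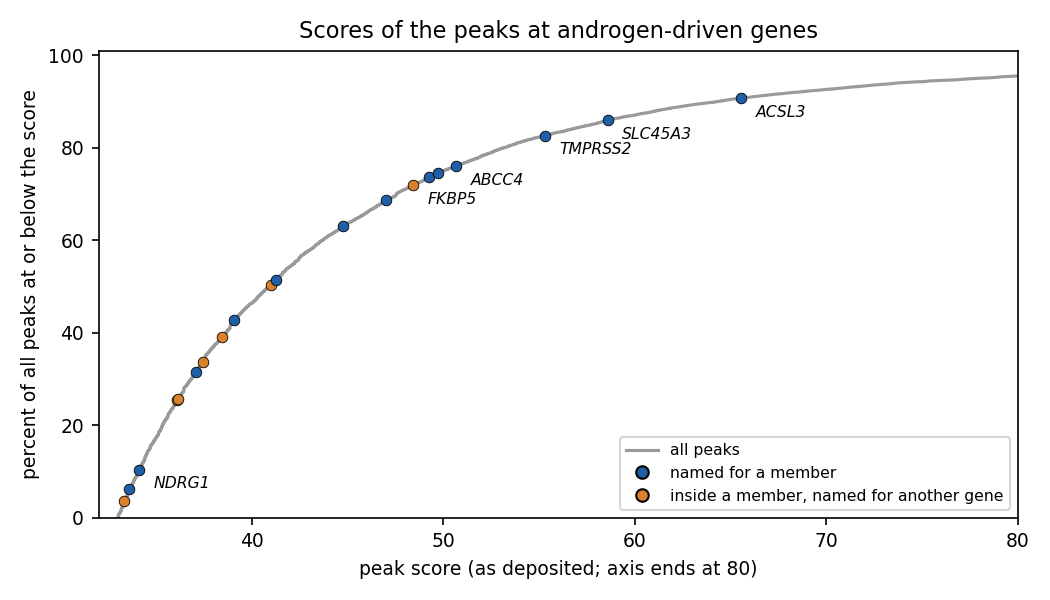
Deposited peak score (x axis, ending at 80) against the percent of all peaks at or below that score (y axis), with all 18070 peaks as the grey line. Blue points are the 13 peaks named for the genes and orange points the 7 internal peaks named for another gene, with the gene written at its strongest peak; NDRG1 lies at the low end and ACSL3 at 65.55 is the highest.

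Motifs were counted within 100 bp of each peak centre, on both strands. GGAA was found at 13 of 13 named peaks and at 18 of all 20, against 83.8% of 18037 peaks. The longer ETS core CCGGAAGT, which contains GGAA and was allowed 1 mismatch outside it, was found at 1 of 13, the farther NDRG1 peak, against 2.62% of all peaks. The half-site AGAACA was found at 3 of 13 peaks, upstream of TMPRSS2, upstream of SLC45A3 and at the ACSL3 peak in the LTR repeat, and at 1 internal FKBP5 peak, against 17.0% of all peaks. The full androgen receptor element, AGAACA and TGTTCT separated by 3 bases with at most 2 mismatches, overlaps the half-site motif but need not hold an exact copy of it, and was found at 0 of 20, against 1.81% of all peaks. The forkhead motif TGTTTAC was found at 1, the second ACSL3 peak, against 3.69%. Over the whole peak, GGAA was again found at 13 of 13 and 18 of 20, now against 94.9% of all peaks, so that the share over the 20 lay above that of the list in the windows and below it over whole peaks. The ETS core was then found at 3 of 13 (6.40% of all peaks), the half-site at 6 of 13 (33.7%), the full element at 0 (4.07%) and the forkhead motif at 1 (8.50%). A count of 0 says only that these letters are not in these windows.

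The 20 windows had a median GC content of 36.6%, beside 38.3% over all peaks, and ranged from 27.4 to 53.7%. Of the 20 peaks, 7 overlapped an annotated repeat at their centre, against 42.4% of all peaks. Peak width had a median of 415 bp at the genes and 400.0 bp over the list.

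**Figure D4:**
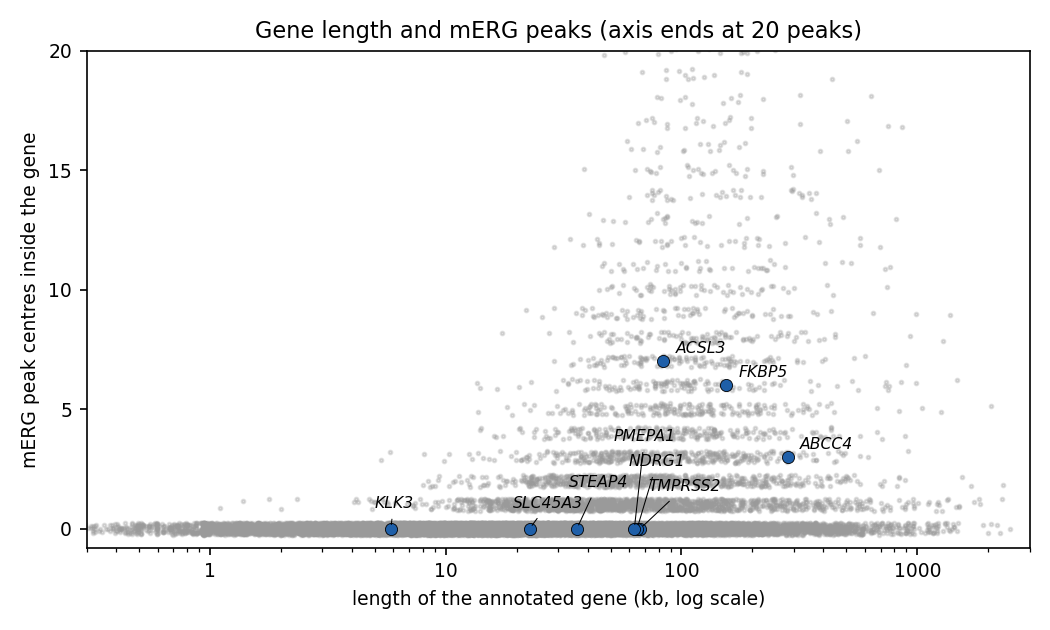
Length of each annotated protein-coding gene in kb (x axis, log scale) against the number of mERG peak centres inside it (y axis, ending at 20); grey points are all protein-coding genes, spread slightly in height so that they can be seen, and blue points are the 9 genes. ACSL3 with 7 and FKBP5 with 6 peaks lie among the fuller genes of their length, and TMPRSS2, NDRG1 and PMEPA1, of nearly the same length as each other, have 0.

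A list of 86 other androgen-responsive genes was described in the same way. Like the 9 genes, it was chosen with earlier results of these data known. How far its shares reflect that choice was not tested. Of these, 38 were named by a peak (44.2%, Wilson 95% interval 34.2 to 54.7%), and 39 held an internal one (45.3%); both counts stand beside the 20.4% and 19.6% over protein-coding genes. Their median length was 51.2 kb, against 27.2 kb over protein-coding genes and 64.8 kb for the 9 genes, so that length differed along with the share. The mean share with an internal peak in these genes' own length classes was 26.7%, beside the 45.3% observed. The strongest peak of the 38 had a median score of 52.7, against 55.3 at the 5 named genes and 44.5 over all named genes.

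Several of these other genes had far more peaks than any of the 9. TPD52, a vesicle trafficking protein, was named by 38, and ELL2, a transcription elongation factor, by 28 with a highest score of 226.48. ZBTB10 was named by 20, MAP7, a microtubule-binding protein, by 19, ABHD2, a lipid hydrolase, by 17, HOMER2 and PIAS1 by 14 each, and PDLIM5 by 12. TPD52 (chr8:80946980-81143467) and ZBTB10 (chr8:81397854-81438500) lie close together on chromosome 8, which held 10.9 peaks per Mb. Among peaks named for the gene, the highest scores were at ELL2, then HOMER2 (168.76), ZBTB10 (123.29), PIAS1 (118.56), a SUMO ligase that binds the androgen receptor, and TPD52 (116.67). Among peaks inside the gene, whatever their name, that of TPD52 was higher, at 257.4. ACPP, prostatic acid phosphatase, was named by 8 peaks, but all 8 lay upstream at 112 to 138 kb and 0 inside. KLK2 and KLK4 were named by 0 peaks and held 0, with the nearest peak 1201 kb and 1151 kb from their starts.

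**Figure D5:**
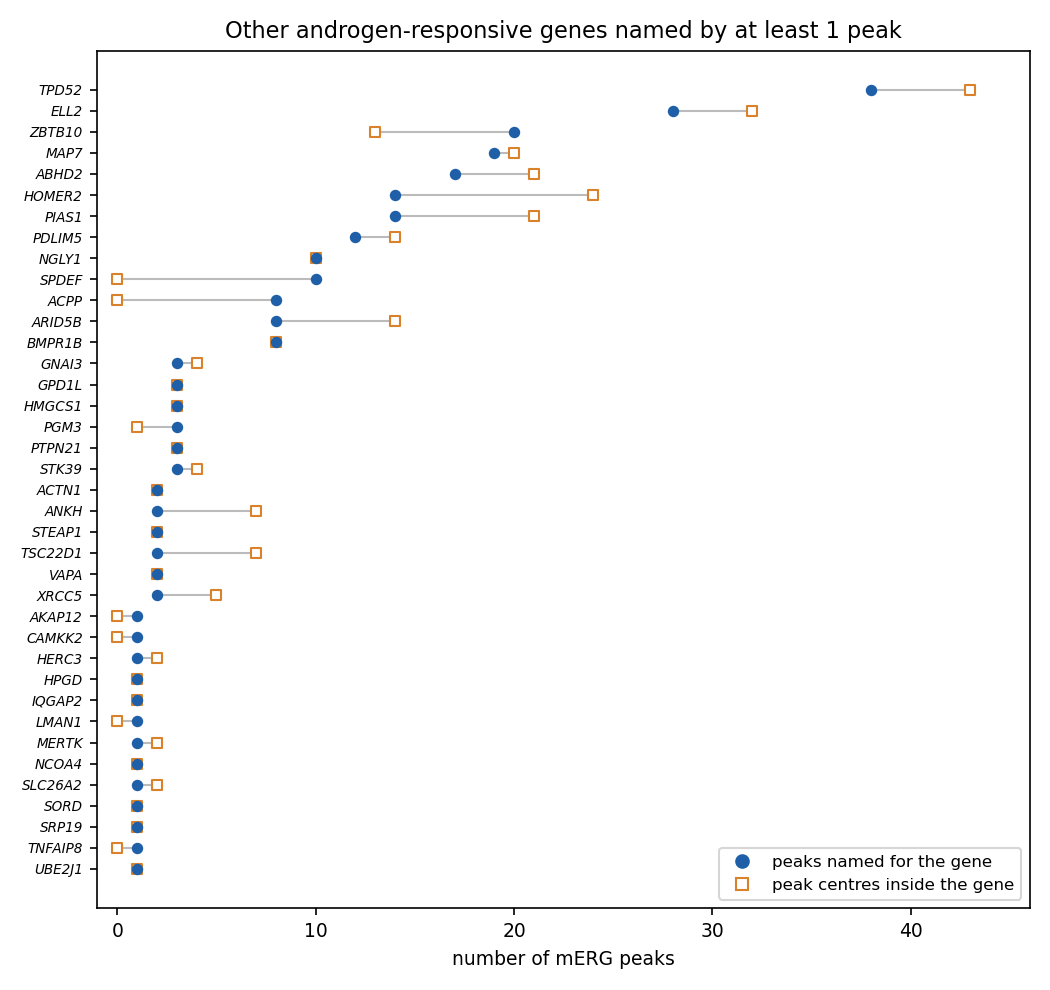
Number of mERG peaks (x axis) at the 38 other androgen-responsive genes named by at least 1 peak; blue circles count peaks named for the gene and orange squares count peak centres inside it. TPD52 (38 named) and ELL2 (28 named) lead, and ACPP has 8 named and 0 inside.

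Family members of the 9 genes were described last. Of 45 paralogs, 5 were named (11.1%, Wilson 95% interval 4.84 to 23.5%), beside 20.4% over protein-coding genes, and 7 held an internal peak (15.6%), beside a mean of 22.3% in their length classes. ACSL1, which like ACSL3 activates long-chain fatty acids, was named by 3 peaks and held 6, with a highest internal score of 60.22 and its closest peak −0.390 kb from the TSS. ACSL5 was named by 0 and held 1, scoring 55.76. STEAP1, which is also in the list of other androgen-responsive genes together with STEAP2, was named by 2 and held 2, while STEAP4 had none. FKBP14 and FKBP9 were named by 1 each, and FKBP1A, the binding protein of the drug FK506, held 3 peaks that bore another name. NDRG3 was named by 1 and held 3. No paralog of TMPRSS2, KLK3, SLC45A3, PMEPA1 or ABCC4 in the list had a peak by either count.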

How the data were processed

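The data were the mERG peak list deposited for VCaP cells, called on 1 ChIP library and 1 control. Per the file header it holds MACS peaks on hg19 annotated with HOMER; the submitters' processing notes name Bowtie2, Picard, HOMER and hg19. Versions and thresholds are not given in the sources used here. Scores are those the authors deposited, on a scale the header does not name. Depth per library could not be read from the list, and intervals cover counting error only. Distances to the TSS of the list run from the peak centre, as deposited. Distances to an annotated start were computed here from the peak centre and the annotated gene positions. Peaks per Mb of a chromosome were taken over its length up to the last gene, without correction for unsequenced stretches.

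Names were matched through RefSeq symbols (GRCh38.p14, names only), for 9 of 9 genes, 86 of 86 other androgen-responsive genes and 45 of 45 paralogs. Gene positions came from GENCODE release 44 on GRCh37. Sequence was read from GRCh37 for 18037 peaks; 33 on other contigs had none. Genes were named by rule: the 9, ERG, the 8 other androgen-responsive genes with most peaks and the 5 with the highest score, KLK2, KLK4, ACPP, every paralog with a peak, and genes named by peaks inside or nearest to the 9. A gene that the rule also covers is not reported here. BRWD1 and PSMG1, and the genes used as landmarks, were chosen after their values were seen. The members and lists were chosen with earlier results of these data known. Without replicates no test was made. Motif search was tested on simulated data with planted motifs. Gene counts were checked against a brute-force count on chromosome 21 and matched for 229 of 229 genes. The work was done in Python 3.11.15 with pandas 2.3.3, NumPy 2.4.6 and SciPy 1.17.1, and plots were drawn with Matplotlib 3.10.9.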

Additional observations from a re-analysis of the deposited data

How the results depend on the processing

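No paired analysis was possible because only 1 ChIP library and 1 control were made. Of the other settings tried for the results over all genes, 17 stayed within the limits used (1.5 times for counts, the 95% interval for shares) and 8 moved the value, among them the medians of score and distance, which have no interval and count as moved at any change; of those chosen after seeing the data, 10 stayed and 1 moved it. For peak numbers at single genes, 15 stayed and 9 moved.

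The number of the 9 genes with a peak fell from 5 to 1 when the peak had to lie within 10 kb of the TSS. With position in place of the name, inside the gene or up to 10 kb before its start, it was 3: TMPRSS2, SLC45A3 and NDRG1 dropped out and FKBP5 came in. The 13 peaks fell to 4 at a score of at least 50 and rose to 20 when internal peaks with another gene's name were added, a choice made after seeing the data. The median over genes of the highest score went from 55.3 to 47.0 with each gene's median peak. The median distance to the closest peak went from 70.0 to 30.3 kb when any annotated transcript start counted. With no mismatch the ETS core was found at 0% of the 13 peaks, beside 0.0333% of all peaks. Over the whole peak the ETS core went from 7.69 to 23.1% and the half-site from 23.1 to 46.2%, both within the interval. The other androgen-responsive genes with a peak fell from 38 to 21 within 10 kb, and the paralogs from 5 to 2 with the stronger 50% of peaks. A minimum score or a maximum distance lowers counts by construction, since fewer peaks enter; for the rest the cause was not tested. A gene with no peak in 1 library of unknown depth is a gene at which none was called.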
